A study of Mus musculus with 26 samples.

Results

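The DRR enhancer RNA was captured with 2 separate probe pools, and the regions described here are the places in the genome that both pools reported. The summits of the 4 ChIRP lists were widened by 250 bp on each side and joined where they shared at least 1 bp, on chromosomes 1 to 19 and X of mouse build mm9. A joined region was kept if at least 1 list of pool 1 and at least 1 list of pool 2 had a summit in it. This gave 1146 regions out of 97279 ChIRP regions in all, while pool 1 alone held 66813 and pool 2 alone 29320. The regions were thus chosen by the positions of the ChIRP summits, so everything below about summit positions and ChIRP ranks is a description without a test, whereas SMC3 and ATAC calls played no part in it.

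ChIRP, chromatin isolation by RNA purification, crosslinks cells, fishes out one RNA with biotinylated probes that tile it and sequences the DNA that comes along. Separate pools that target different stretches of the RNA serve as a check on each other, because DNA that a probe catches by its own base pairing should not recur with other probes. DRR stands for the distal regulatory region, an enhancer of Myod1, the gene of the muscle-determining transcription factor MyoD, and the RNA is transcribed from that enhancer. SMC3 is a core subunit of the cohesin ring, which holds chromatin loops and sister chromatids together. ATAC-seq marks open chromatin, where the Tn5 transposase can insert.

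All libraries came from C2C12, a single mouse myoblast line that fuses into myotubes when serum is withdrawn, so no second line stands beside it. The ChIRP lists, 2 replicates for each of DRR probe pool1 and DRR probe pool2, came from myotubes. SMC3 ChIP-seq covered myotubes transfected with siDRR, myotubes with no transfection label, and myoblasts, with 2 libraries each. ATAC-seq covered myotubes transfected with siDRR, siSmc3 or Control, again with 2 libraries each. Myoblasts were grown in 20% FBS, and myotubes were made in 2% horse serum with insulin, transferrin and selenium. Because the myotube SMC3 libraries carry no transfection label, the step of transfection and the effect of siDRR cannot be told apart in that comparison. Neither the input libraries nor the LacZ ChIRP libraries were used, and the RNA level of DRR or Smc3 after knockdown was not analysed here. The place of the DRR enhancer itself relative to the regions was not analysed here either. The labels do not say that replicates were separate cultures. The spread between replicates may therefore be technical.

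The lists differed in length, which touches every count below. The pool 1 lists held 3776 and 68812 summits and the pool 2 lists 23087 and 20295. SMC3 lists held 8384 and 23196 peaks in siDRR myotubes, 15056 and 26765 in myotubes and 30955 and 33154 in myoblasts, and ATAC lists held 58138 to 103056 peaks. No list gave read counts, so the depth behind each list is unknown. A peak's strength is given here as its rank percentile within its own list by the deposited score, with 100 the best.

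Each pool repeated itself far better than it repeated the other pool. Between the replicates of pool 1, 3415 pairs of summits lay within 100 bp of each other, equal to 90.7% of the shorter list. The longer list, replicate 2, held 68812 summits, so most of its summits had no replicate 1 summit within that distance. Between the replicates of pool 2 there were 12320 such pairs, equal to 61.0% of the shorter list. Between pools, the same distance held 102 and 80 pairs for pool 1 replicate 1 with pool 2 replicates 1 and 2, and 406 and 342 pairs for pool 1 replicate 2. The regions of both pools were therefore a small share of every list, at 4.49% and 1.66% of the regions in the pool 1 lists and 3.97% and 3.83% of those in the pool 2 lists.

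Which lists supported a region was uneven. Pool 1 replicate 2, the longest list, took part in 1124 of the 1146 regions, whereas pool 1 replicate 1 took part in 166. Pool 2 replicate 1 called 906 and replicate 2 called 770, and both together called 530. By number of lists, 573 regions were in 2 lists, 472 in 3 and 101 in all 4. Without pool 1 replicate 2 only 163 regions were left and without pool 2 replicate 1 763, while leaving out either of the other ChIRP lists left 893 to 1120.

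The regions of both pools were not the best-ranked ChIRP sites as a whole. In pool 1 replicate 2 their median rank percentile was 39.5, against 50.3 for the other regions of that list. In pool 1 replicate 1 it was 46.0, against 51.5. In pool 2 replicate 1 the order was the other way, with 64.9 in the regions of both pools and 51.2 in the other regions. In pool 2 replicate 2 the medians were 52.1 and 51.0. Counts of regions at or above the 90th percentile were 17 and 132 in the pool 1 lists and 240 and 111 in the pool 2 lists.

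The regions fell into a group with coinciding summits and a broad remainder. In 294 regions (25.7%) the nearest summits of the 2 pools lay within 20 bp of each other. These held 71 of the 101 regions found in all 4 lists, which is 24.1% of the close regions. Of the 852 regions whose summits lay further apart, 30 were in all 4 lists (3.52%). The distance is the smallest over all pairs of a pool 1 and a pool 2 summit in a region. Regions in more lists hold more such pairs, so part of this contrast is built into the measure. In pool 2 replicate 1 the close regions had a median percentile of 96.5 and the others one of 51.2. In pool 2 replicate 2 the medians were 60.1 and 51.0, and in pool 1 replicate 2 they were 37.8 and 41.2. The closeness of the summits thus went with a high rank in one pool 2 list and not with a high rank in the longer pool 1 list.

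Beyond 20 bp the distances were spread over the whole joining range. There were 224 regions at 21 to 100 bp, 191 at 101 to 200 bp, 140 at 201 to 300 bp, 134 at 301 to 400 bp and 163 at 401 to 500 bp. The same was seen without the joining rule. Over all pairs of a pool 1 and a pool 2 summit, 547 pairs lay within 20 bp, and from 201 to 500 bp each 100 bp held 222 to 243 pairs. Just outside the joining distance there was a second excess, with 493 pairs at 501 to 600 bp and 371 at 601 to 700 bp before 218 at 701 to 800 bp. Most of it came from pool 1 replicate 2 with pool 2 replicate 1, at 325 and 239 pairs in these windows against 107 at 701 to 800 bp. None of those pairs entered the regions by itself.

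**Figure D1:**
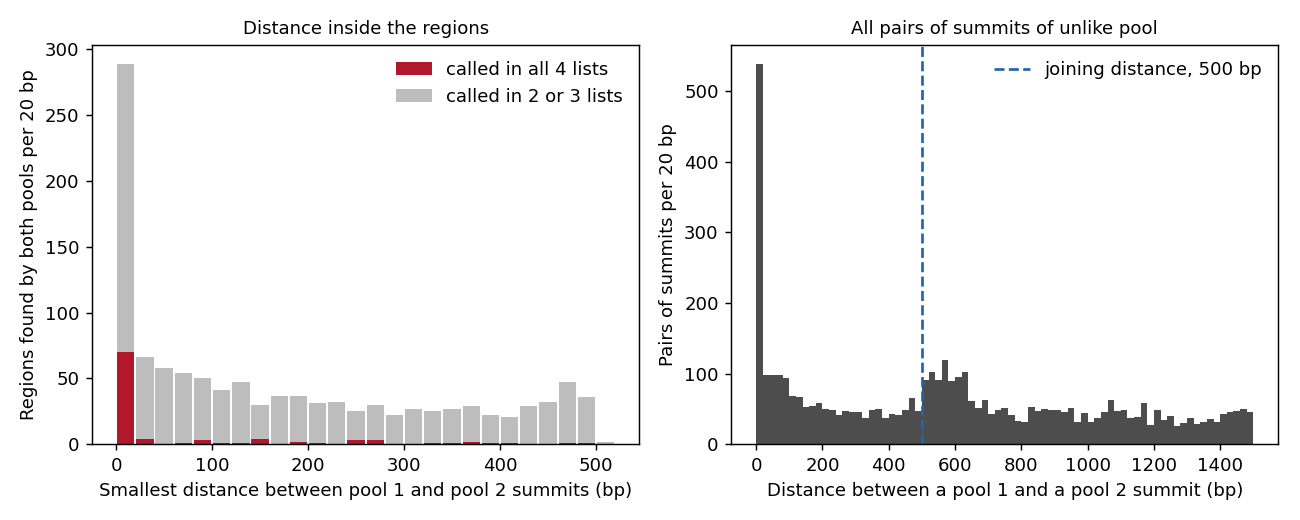
Left, the number of regions found by both pools in 20 bp bins of the smallest distance (bp) between a pool 1 and a pool 2 summit, split into regions called in all 4 lists (red) and in 2 or 3 lists (grey). Right, all pairs of a pool 1 and a pool 2 summit in 20 bp bins, with the 500 bp joining distance as a dashed line; the first bin stands above the rest in both panels, and the pairs rise again just past the line.

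The edge of the rule was set by position and took no account of rank. Of 3 pairs of summits just inside it, at exactly 500 bp, the one on chromosome 11 (48174129 in pool 1 and 48173629 in pool 2, mm9) had percentiles of 98.3 and 34.6. The pair on chromosome 15 (70440009 and 70439509) had 81.8 and 22.5, and the pair on chromosome 2 (89999549 and 90000049) had 69.4 and 28.9. Just outside, at 501 bp, the pair on chromosome 1 (121943818 and 121943317) had 99.95 and 57.4. The pairs outside on chromosome 16 (97180846 and 97180345) and chromosome 5 (146559292 and 146558791) had 41.2 and 17.8, and 33.5 and 85.4. Pool 1 percentiles were thus 69.4 to 98.3 inside and 33.5 to 99.95 outside, and pool 2 percentiles 22.5 to 34.6 inside and 17.8 to 85.4 outside. With 3 pairs on each side, these values cannot show whether rank differs across the edge.

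In size, regions of both pools had a median width of 651 bp (501 to 1756 bp), against 501 bp for the regions of pool 2 alone and of pool 1 alone. A region with summits of both pools is wider by construction unless the summits coincide. Most held few summits, with 2 in 566 regions, 3 in 459, 4 in 108, 5 in 12 and 8 in 1. The region with 8 summits, 2 of pool 1 and 6 of pool 2, was also the widest and lay on chromosome 3 (83650369 to 83652124). It had percentiles of 72.3 in pool 1 replicate 1 and 89.3 and 17.4 in the pool 2 lists, and no SMC3 or ATAC peak in any library. The regions were scattered, with a median gap of 1211 kb between neighbours on a chromosome and 31 gaps under 10 kb. Chromosome 8 held the most (83), and chromosome 9 held the most per 1000 ChIRP regions, at 17.2 against 11.8 over all chromosomes and 7.58 on X.

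The 6 best-supported regions, ranked by their lowest percentile over the 4 ChIRP lists, carried no SMC3 peak and no ATAC peak in any of the 12 libraries. The best lay on chromosome 17 (4626087 to 4626607, 521 bp), with percentiles of 99.84 and 99.98 in the pool 1 lists and 100 in both pool 2 lists. The second lay on chromosome 8 (12377980 to 12378698), at 99.34 and 99.97 in pool 1 and 99.45 and 98.7 in pool 2. The third, on chromosome 11 (24999912 to 25000426), had 97.3 and 98.8 in pool 1 and 99.99 and 99.7 in pool 2. The fourth (chromosome 13, 113303340 to 113303907) had a lowest percentile of 95.0, the fifth (chromosome 9, 19379663 to 19380180) one of 93.7, and the sixth (chromosome 2, 60240607 to 60241112) one of 92.0. In 5 of the 6 the pool summits lay 0 to 6 bp apart, and on chromosome 8 they lay 141 bp apart.

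The same held more widely among the strong regions. Of the 50 regions at or above the 90th percentile in both pools, 46 (92.0%) had no SMC3 or ATAC peak in any library. Of the 101 regions in all 4 ChIRP lists, 86 (85.1%) had none, 3 had any SMC3 peak and 14 any ATAC peak. Over all 1146 regions the share with no peak was 78.3% (897 regions), against 82.2% in regions of pool 2 alone and 88.7% in those of pool 1 alone. The share without a peak was thus larger in these strong regions than over all regions of both pools. Against single-pool regions, the 85.1% lay between the shares of pool 2 alone and pool 1 alone, and the 92.0% above both. The strong regions were also narrower, at 516.5 and 515 bp in the median against 651 bp. With every region set to 501 bp, the shares were 92.0% and 85.1%, against 80.1% over all regions of both pools. This is a description of these lists with no test.

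The contrasts were smaller once width was the same. With every ChIRP region set to 501 bp about its midpoint, the share without a peak was 80.1% in regions of both pools and 82.3% in regions of pool 2 alone. Among the close regions it was 84.0% and among the others 78.8% at equal width, and 83.7% and 76.4% at the merged widths of 509 and 738 bp in the median. The close regions had the lower share of regions with a peak in 12 of the 12 SMC3 and ATAC libraries as merged, and in 10 of 12 at equal width.

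Regions of both pools that did carry a peak carried ATAC more often than SMC3. An ATAC peak in any library lay in 222 regions and an SMC3 peak in any library in 81, and 54 regions had both kinds. ATAC alone was found in 168 and SMC3 alone in 27. ATAC peaks in all 6 libraries lay in 42 regions, 25 of which had no SMC3 peak, and SMC3 peaks in all 6 libraries lay in 8 regions, 5 of which had no ATAC peak. Of the 81 regions with SMC3, 54 (66.7%) thus had an ATAC peak as well, against 19.4% of all 1146 regions. Most accessible regions had no SMC3 peak, since the 54 were 24.3% of the 222. Single-pool regions showed the same order. In pool 2 alone 4690 regions had ATAC, 1800 had SMC3 and 1270 had both, and in pool 1 alone 6766, 2385 and 1610. ATAC in all 6 libraries was found in 3.67% of regions of both pools, 2.38% of pool 2 alone and 1.28% of pool 1 alone. For SMC3 these shares were 0.698%, 0.727% and 0.464%. The ATAC lists were also the longer ones, and the part of list length was not tested.

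By library, SMC3 peaks lay in 10 and 37 of the 1146 regions in siDRR myotubes (0.873% and 3.23%), in 29 and 53 in myotubes (2.53% and 4.62%) and in 52 and 61 in myoblasts (4.54% and 5.32%). The counts rose with the lengths of the lists, apart from the last myotube and first myoblast library. ATAC peaks lay in 82 and 120 regions with siDRR (7.16% and 10.5%), in 95 and 132 with siSmc3 (8.29% and 11.5%) and in 92 and 118 with control siRNA (8.03% and 10.3%). Every ATAC group overlapped the others. The median distance from a region's midpoint to the nearest peak was 24.0 to 101 kb over the SMC3 libraries and 5.75 to 11.3 kb over the ATAC libraries.

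Compared with regions of pool 2 alone, regions of both pools had 0.927 to 1.29 times the share with SMC3 over the 6 SMC3 libraries, and 1.29 to 1.42 times the share with ATAC over the 6 ATAC libraries. At equal width these ratios were 0.753 to 1.19 for SMC3 and 1.11 to 1.35 for ATAC. For SMC3 the ratio therefore lay on both sides of 1, and for ATAC it stayed above 1 in each library. Compared with regions of pool 1 alone, the equal-width ratios were 1.23 to 1.97 for SMC3 and 1.83 to 2.25 for ATAC. Median percentiles of the peaks at these regions were 44.3 to 63.3 in the SMC3 lists and 66.8 to 74.8 in the ATAC lists.

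**Figure D2:**
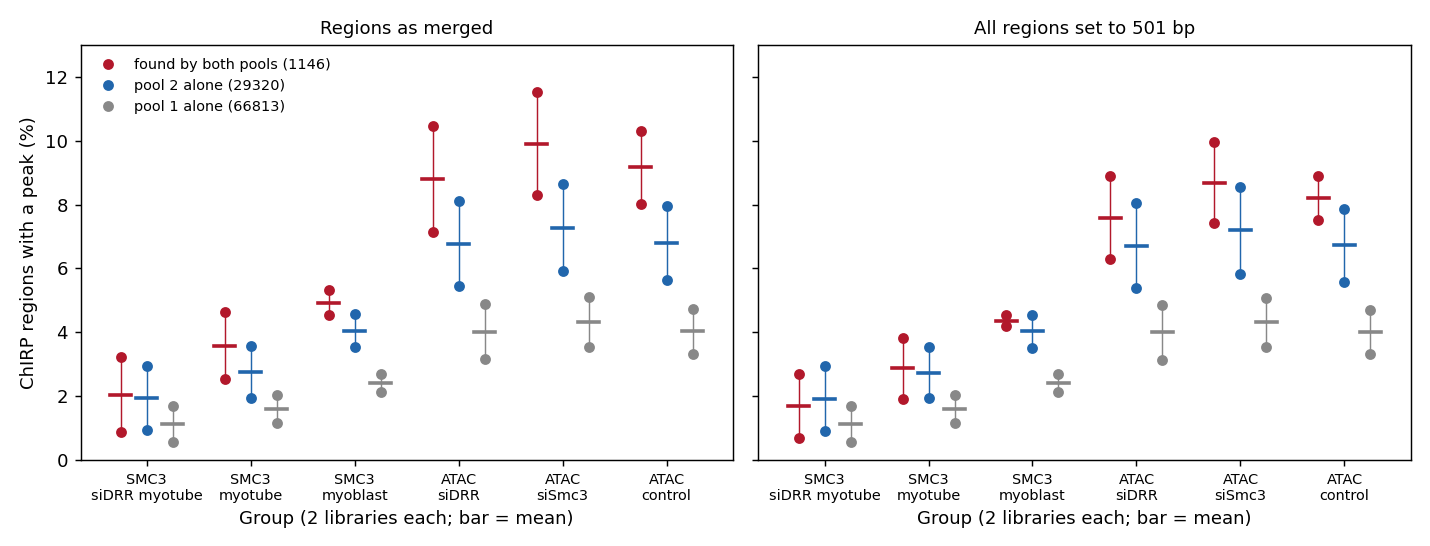
Share of ChIRP regions (%) with at least 1 peak, for regions found by both pools (red), pool 2 alone (blue) and pool 1 alone (grey), in the 6 SMC3 and ATAC groups; points are the 2 libraries of a group, short bars their mean. Left, regions as merged; right, all regions set to 501 bp, where red and blue draw together for SMC3 and stay apart for ATAC, with red above blue in each replicate.

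Calls shared by both libraries of a group were rarer. SMC3 was called in both libraries in 9 regions (0.785%) in siDRR myotubes, 26 (2.27%, exact 95% interval 1.49% to 3.31%) in myotubes and 45 (3.93%) in myoblasts. In myotubes the share among regions of pool 2 alone was 1.71%, and among those of pool 1 alone 1.01%. ATAC was called in both libraries in 65 regions (5.67%) with siDRR, 64 (5.59%) with siSmc3 and 70 (6.11%, interval 4.79% to 7.66%) with control siRNA. In control myotubes the share was 4.12% in regions of pool 2 alone and 2.35% in those of pool 1 alone. These intervals cover counting error only.

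Of the 26 regions with SMC3 in both myotube libraries, 23 had a call in both myoblast libraries and 25 in at least 1. The 1 region without a myoblast call (3.85%) compares with 5.84% of all ChIRP regions and 2.43% of all SMC3 peak regions. A myoblast call is thus no trait particular to the regions of both pools. The highest-ranked of the 26 lay on chromosome 2 (167048510 to 167049424). It had percentiles of 94.5 and 95.9 in siDRR myotubes, 93.8 and 95.0 in myotubes and 97.1 and 98.3 in myoblasts, and no ATAC peak in any library. Its SMC3 rank was high and nearly the same in all 6 libraries, while its ChIRP ranks were 52.0 in pool 1 replicate 2 and 44.7 and 3.58 in pool 2. Next came chromosome 10 (43790251 to 43790885), with 45.9 and 88.3 in siDRR myotubes, 92.0 and 92.2 in myotubes and 70.6 and 88.2 in myoblasts. On chromosome 5 a region (114222171 to 114222886) had no peak in siDRR replicate 1 and 99.1 in siDRR replicate 2, against 84.5 and 95.5 in myotubes. That on chromosome 15 (64458206 to 64459094) had 30 and 87.1 in siDRR myotubes and 89.4 and 88.4 in myotubes.

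Among the 10 best-ranked of these 26, 5 had SMC3 in both siDRR libraries, 4 in one of them and 1 in neither. A call in both myoblast libraries was present in 8 of the 10, ATAC in both control libraries in 2, and no ATAC peak at all in 5. None of the 10 was found in all 4 ChIRP lists. On chromosome 14 (55333729 to 55334407), a region at 98.3 and 75.5 in the pool 2 lists, SMC3 stood at 67.9 in siDRR replicate 1 and was not called in siDRR replicate 2, against 80.2 and 80.7 in myotubes.

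**Figure D3:**
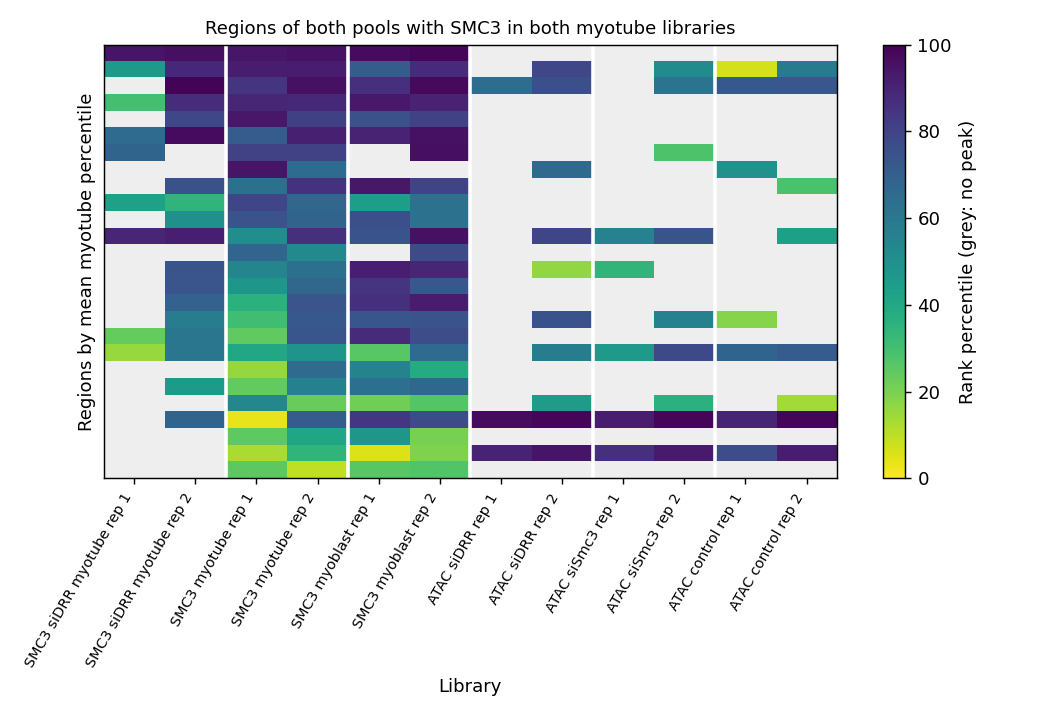
Rank percentile of the SMC3 or ATAC peak (colour, 100 is best, grey means no peak) in each of the 12 libraries, for the 26 regions of both pools with SMC3 in both myotube libraries, 1 row each, ordered by their mean myotube percentile. The myoblast columns are filled in most rows, siDRR replicate 1 has the fewest fills among the SMC3 columns, and the ATAC columns are mostly grey.

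Cohesin and open chromatin met in both libraries of myotubes and of control ATAC at 5 regions, while 16 of the 26 had no ATAC peak in either control library. The strongest ATAC peak among the 5 lay on chromosome 14 (35175850 to 35176443), at 97.0 and 98.2 with siDRR, 92.5 and 98.1 with siSmc3 and 89.8 and 98.5 with control siRNA. Its SMC3 peak was absent in siDRR replicate 1 and at 67.8 in replicate 2, against 3.30 and 70.9 in myotubes. Another, on chromosome 4 (132018555 to 132019555), had SMC3 at 15.6 and 60.9 in siDRR myotubes, 40.3 and 48.2 in myotubes and 26.1 and 65.2 in myoblasts. The chromosome 5 and chromosome 10 regions named above and a region on chromosome 16 (92710077 to 92710645) completed the 5. For background, 500 regions of pool 2 alone had SMC3 in both myotube libraries. Of these, 120 had ATAC in both control libraries and 256 in neither. In pool 1 alone the counts were 156 and 369 of 672. The 5 and 16 of 26 are thus no trait particular to the regions of both pools.

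The first comparison asked how SMC3 at these regions differed between myotubes and myoblasts. The share of regions with an SMC3 peak averaged 3.58% ± 1.48 in myotubes and 4.93% ± 0.555 in myoblasts (SD, n = 2 libraries each). The difference of -1.35 percentage points was smaller than the spread between the myotube libraries, and the exact two-sided permutation test over libraries gave p = 0.667, where 0.333 is the smallest value this design allows. SMC3 was missing from both myotube libraries in 6 of the 45 regions called in both myoblast libraries (13.3%). Over all ChIRP regions the same share was 22.2%, and over all SMC3 peak regions 21.7%. In the other direction, of the 26 regions that both myotube libraries called, 1 was absent from both myoblast libraries (3.85%), against 5.84% of ChIRP regions and 2.43% of peak regions. The interval of the first share, 5.05% to 26.8%, holds both background shares.

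Of the 45 regions, 23 were called in all 4 libraries. The region that lost the highest-ranked myoblast peak lay on chromosome 15 (25374950 to 25375731), with no peak in the myotube lists against 89.8 and 99.1 in the myoblast lists. In each myotube list the nearest peak was about 3 kb from its midpoint (3.06 and 3.16 kb). A region on chromosome 3 (93357207 to 93357903) had no SMC3 peak in myotubes, against 53.3 and 72.3 in myoblasts, and had ATAC at 97.7 and 94.6 with siSmc3 and at 94.1 in control replicate 2. Without a myotube peak were also chromosome 8 (123421276 to 123421779), at 78.8 and 63.3 in myoblasts, and chromosome 14 (76919517 to 76920220), at 38.6 and 67.2 in myoblasts. So was a region of chromosome 11 (100081988 to 100082500), at 7.54 and 61.4 in myoblasts. A peak of myotube replicate 2 lay 0.263 kb from the midpoint of the chromosome 8 region and 0.581 kb from that of the chromosome 3 region. In these 2 of the 6 lost regions a near miss of the window and an absent site cannot be told apart.

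The region that gained SMC3 in myotubes was on chromosome 1 (136186675 to 136187550), at 94.5 and 64.9 in myotubes and with no peak in myoblasts, where the nearest SMC3 peaks were 41.1 and 40.9 kb away. It was supported by 3 ChIRP lists, at 70.5 in pool 1 replicate 2 and 28.6 and 98.8 in pool 2. Leaving out one library changes such counts because a single call then suffices. The loss count was 16 without myoblast replicate 1, 12 without myoblast replicate 2, 21 without myotube replicate 2, 2 without pool 2 replicate 1 and 0 without pool 1 replicate 2. The gain count was 3 without myoblast replicate 2 or myotube replicate 2, 8 without myotube replicate 1 and 0 without pool 1 replicate 2.

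Knockdown of the RNA asked whether SMC3 at the regions it was captured with depended on it. The share with an SMC3 peak averaged 2.05% ± 1.67 in siDRR myotubes and 3.58% ± 1.48 in myotubes (SD, n = 2 each). The difference of -1.53 points was about as large as the spread between libraries of a group, with p = 0.667 in the exact permutation test. Of 64 regions with SMC3 in any of these 4 libraries, 37 were called in fewer siDRR than myotube libraries, 9 in more and 18 in equally many. The siDRR lists were also the shorter ones, and the part of list length in that balance was not tested. No such balance over all ChIRP regions stands beside it. Between myotubes and myoblasts, 38 of 78 regions were called in fewer myotube libraries, 12 in more and 28 in equally many.

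Among the 26 regions with SMC3 in both myotube libraries, 7 had it in neither siDRR library (26.9%, exact 95% interval 11.6% to 47.8%). The share was 9.52% over all ChIRP regions and 6.45% over all SMC3 peak regions, both below that interval, which covers counting error alone. Of the 8 shares lost or gained in the 4 comparisons, this was the one whose interval lay apart from the share over ChIRP regions, at the width of 250 bp. Regions are not replicates of the knockdown, so the interval describes these lists and is no test of siDRR. The share was 10.2% in regions of pool 2 alone and 8.33% in those of pool 1 alone. With the SMC3 lists shortened to the best 8384 peaks each, 9 regions were called in both myotube libraries and 0 of them were lost, which allows a share of up to 33.3%. The share also depended on the width: with summits widened by 500 bp, 6 of 62 regions were lost (9.68%), against 8.48% of ChIRP regions of that width, and with 100 bp 4 of 10, against 10.2% of ChIRP regions. The count of 7 was 1 without pool 1 replicate 2, 3 without pool 2 replicate 1, 23 without myotube replicate 1 and 17 without siDRR replicate 2. In the remaining 19 regions SMC3 was called in both siDRR libraries in 8, in replicate 2 alone in 10 and in replicate 1 alone in 1. No region was gained of the 9 called in both siDRR libraries, which allows a share of up to 33.3%, against 0.64% of ChIRP regions and 0.502% of peak regions. Without siDRR replicate 1 the gains were 8 and without myotube replicate 2 there was 1.

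The lost regions had lower SMC3 ranks than the 8 regions called in all 4 libraries. Their mean myotube percentile had a median of 38.6 (17.3 to 79.7), against 77.0 (44.2 to 94.4) in those 8. The 11 regions called in 1 siDRR library are not in this contrast. The losses of the other comparisons had the same order. The medians were 57.9 against 78.6 for myotubes against myoblasts, 65.4 against 84.1 for ATAC under siDRR, and 55.3 against 85.55 under siSmc3. The strongest region lost under siDRR was the chromosome 1 region (136186675 to 136187550) that was also the one gained in myotubes. It had no peak in siDRR myotubes, against 94.5 and 64.9 in myotubes. There the nearest siDRR peaks were 77.9 and 32.1 kb away. The second, on chromosome 11 (59841497 to 59842450), had no peak with siDRR against 67.3 and 52.6 in myotubes, and a peak of siDRR replicate 2 lay 0.512 kb from its midpoint. The third, on chromosome 12 (103622081 to 103622927), had no peak with siDRR against 15.7 and 65.1 in myotubes, and was the lost region with the best pool 1 rank, at 87.8 and 99.8.

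The other four ranked lower. A second region on chromosome 12 (113912999 to 113913736) had no peak with siDRR against 53.8 and 23.4 in myotubes. Chromosome 10 (13688666 to 13689355) had none with siDRR against 24.8 and 41.1 in myotubes, with a siDRR replicate 2 peak 0.827 kb away. The chromosome 16 region (92710077 to 92710645) had none with siDRR against 12.5 and 34.8 in myotubes, and ATAC at 76.4 to 94.2 in all 6 ATAC libraries. The last, on chromosome 1 (35782868 to 35783738), had none with siDRR against 25.3 and 9.38 in myotubes, and had strong ChIRP ranks of 91.0 in pool 1 replicate 2 and 97.3 and 98.2 in pool 2. That last region was outside those named by rule and was added after its values were seen.

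The other readouts of these 7 regions are set beside the 26 they came from. SMC3 was called in both myoblast libraries in 5 of the 7, against 23 of the 26. No ATAC peak was present in 4 of the 7, against 14 of the 26, and 1 of the 7 had ATAC in both control libraries. In all 7 the pool summits lay more than 20 bp apart, as they did in 21 of the 26.

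A measure less bound to list length is a ratio of shares within the same library, on a log2 scale. It sets the share in regions of both pools over that in single-pool ChIRP regions, and leaves their unlike widths as they are. It averaged 0.49 ± 0.20 in siDRR myotubes and 0.86 ± 0.02 in myotubes (SD, n = 2 each), a difference of -0.37, and the groups did not overlap. The exact permutation p was 0.333, the smallest the design allows, so the test cannot pass at this size. Without pool 2 replicate 1 the difference was -0.03, and with summits widened by 500 bp it was -0.018 (exact permutation p = 1.0). Between myotubes and myoblasts it averaged 0.86 ± 0.02 and 0.76 ± 0.09, a difference of 0.10 with an exact permutation p = 0.333. That difference was -0.06 with regions of equal width and -0.14 with lists of equal length, so the ratio still depended on both.

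The ATAC comparisons asked whether open chromatin at these regions changed when the RNA or SMC3 was knocked down. Neither knockdown moved the share of open regions beyond the spread between replicates. It averaged 8.81% ± 2.35 with siDRR and 9.16% ± 1.60 with control siRNA (SD, n = 2 each), a difference of -0.349 points with p = 1.0 in the exact permutation test. With siSmc3 it averaged 9.90% ± 2.28 and with control siRNA 9.16% ± 1.60, a difference of 0.742 points with an exact permutation p = 0.667. Both comparisons use the same control libraries. The log2 ratio to single-pool regions differed, by exact permutation, by -0.06 (p = 0.667) with siDRR and by 0.01 (p = 1.0) with siSmc3. With ATAC lists shortened to 58137 peaks each, the siSmc3 difference was -0.698 points, so its direction was not stable.

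With siDRR, 6 of the 70 regions open in both control libraries had no ATAC peak (8.57%), against 6.63% of ChIRP regions and 5.85% of ATAC peak regions. Of 65 regions open in both siDRR libraries, 3 had no call in either control (4.62%), against 4.85% and 6.26%. With siSmc3, 7 of the 70 were lost (10.0%), against 8.45% and 8.31%. Of 64 regions open in both siSmc3 libraries 8 had no call in either control (12.5%), against 9.15% and 9.58%. Each of these 4 shares was near its background, and the background lay within its exact 95% interval. The regions open in all 4 libraries numbered 53 with siDRR and 45 with siSmc3. The loss under siDRR was 28 and 20 without control replicates 1 and 2, 16 without siDRR replicate 2, 3 without pool 2 replicate 1 and 0 without pool 1 replicate 2. The loss under siSmc3 was 26 and 19 without control replicates 1 and 2, 24 without siSmc3 replicate 2, 4 without pool 2 replicate 1 and 1 without pool 1 replicate 2.

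The gains were as dependent on single libraries. Under siDRR the gain was 5 and 10 without control replicates 1 and 2, 25 and 17 without siDRR replicates 1 and 2, 1 without pool 2 replicate 1, 2 without pool 2 replicate 2 and 0 without pool 1 replicate 2. Under siSmc3 it was 17 without control replicate 2, 32 and 37 without siSmc3 replicates 1 and 2, 5 without pool 2 replicate 2 and 0 without pool 1 replicate 2.

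Several of these regions had a peak of the group without a call just outside their edges. A peak lay within 1 kb of the midpoint in 2 of the 6 regions lost and 2 of the 3 gained with siDRR, and in 4 of the 7 lost and 4 of the 8 gained with siSmc3. For those, a shifted or narrower peak and a change in accessibility cannot be told apart.

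By control rank, the strongest region to lose its ATAC call was the same in both knockdowns and lay on chromosome 11 (109513102 to 109513979). It had no peak in the siDRR or siSmc3 lists, against 86.6 and 95.4 in the control lists, and weak SMC3 peaks at 13.5 in myotube replicate 2 and 13.8 in myoblast replicate 2. The nearest peaks lay 0.875 kb from its midpoint with siDRR and 0.874 kb with siSmc3. A region of chromosome 10 (122283265 to 122283768) was also without a peak in all 4 knockdown libraries, against 62.1 and 72.6 with control siRNA, but had peaks 0.483 kb from its midpoint in siDRR replicate 2 and 0.363 kb in siSmc3 replicate 2. On chromosome 6 a region (91058171 to 91059256) likewise had none under either knockdown, against 64.6 and 67.6 with control siRNA, and a siSmc3 replicate 2 peak lay 0.675 kb from its midpoint. In all, 9 regions lost their calls under one knockdown or the other, 4 of them under both, which share their control libraries. No such overlap over all ChIRP regions stands beside the 4 of 9. An SMC3 peak in any library was present in 1 of the 9, against 54 of the 222 regions with any ATAC peak (24.3%).

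Some lost their calls under one knockdown and not the other. A region of chromosome 17 (66672757 to 66673299) had no peak with siSmc3, 54.0 and 82.2 with siDRR and 51.4 and 59.2 with control siRNA. Peaks of the siSmc3 libraries lay 0.758 and 0.384 kb from its midpoint. A region on chromosome 10 (94030483 to 94031371), found in all 4 ChIRP lists, had none with siSmc3, 35.6 and 65.1 with siDRR and 65.2 and 16.1 with control siRNA. Whether siSmc3 and siDRR differed at these regions was not tested. On chromosome 2 (127343842 to 127344608) there was no peak with siDRR, one at 13.7 in siSmc3 replicate 2, and peaks at 67.2 and 62.0 with control siRNA. Chromosome 13 (30852959 to 30853802) looked alike, with none under siDRR, 52.2 in siSmc3 replicate 2, and 44.3 and 38.0 with control siRNA.

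Of 10 regions that gained calls under either knockdown, 1 did so under both, again with no such overlap over all ChIRP regions beside it. The shared region lay on chromosome 9 (72296108 to 72296794), at 55.3 and 66.7 with siDRR, 78.9 and 73.2 with siSmc3 and no peak with control siRNA. However, a peak of control replicate 2 lay 0.389 kb from its midpoint. The same region was also one of the 6 that lost SMC3 in myotubes, with 28.6 and 22.4 in myoblasts. The best-ranked gain under siSmc3 lay on chromosome 5 (92706040 to 92706549), at 96.8 and 97.1, with 95.2 in siDRR replicate 2 and no peak in the controls. Control peaks lay 0.306 and 0.327 kb from the midpoint of that 510 bp region. The other two gained under siDRR had no peak in the controls. One, on chromosome 17 (66867596 to 66868183), had 85.5 and 50.1 with siDRR and a control replicate 1 peak 0.576 kb from its midpoint, and the other, on chromosome 15 (97206579 to 97207531), had 37.1 and 25.2. Under siSmc3 a region of chromosome 11 (65604003 to 65604784) had 71.4 and 74.9 and no ATAC peak elsewhere. Both chromosome 9 (99317956 to 99318577), at 53.5 and 59.7 with siSmc3, and chromosome 15 (36747919 to 36748632), at 33.6 and 41.7, had a peak in siDRR replicate 2 as well, at 33.2 in each, and none in the controls. Control peaks lay 0.793 and 0.389 kb from the midpoint of the chromosome 9 one.

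**Figure D4:**
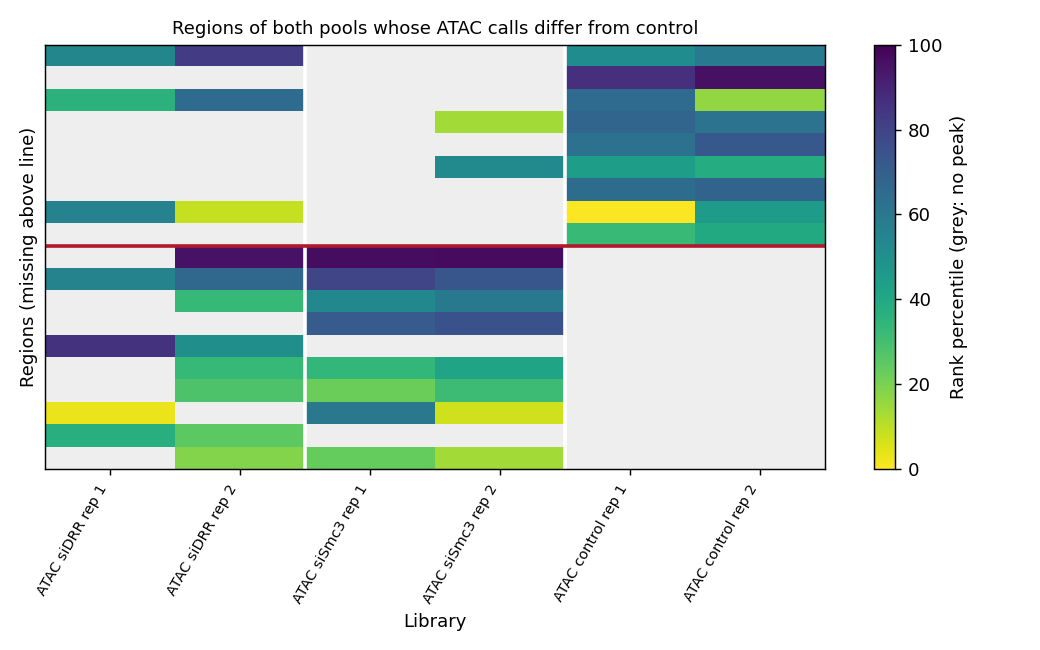
Rank percentile of the ATAC peak (colour, 100 is best, grey means no peak) in the 6 ATAC libraries for the regions of both pools, 1 row each, that lost (9, above the red line) or gained (10, below it) calls in both libraries of a knockdown. Control columns are filled above the line and empty below it by the definition of the sets, and 4 of the 9 upper rows and 1 of the 10 lower rows meet it under both knockdowns.

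The regions with the best ATAC ranks stood near the top of every ATAC list. Regions at or above the 99th percentile in all 6 ATAC libraries numbered 6, and 1 of them had an SMC3 peak. Of these, 4 were neighbours within 3366 bp on chromosome 17 (39980966 to 39984331), each at 100 in every ATAC list and none with SMC3. They made up all the ChIRP regions of that stretch, and 3 of them had ChIRP percentiles of 1.16 to 45.1 in pool 1 replicate 2. The first of the 4 (39980966 to 39981647) was in all 4 ChIRP lists, at 99.2 and 99.8 in pool 1 and 99.2 and 53.6 in pool 2. As 4 regions in one short stretch they are not independent. The sequence of that stretch was not analysed here, and what lies behind its top ATAC ranks was not tested. The other two lay on chromosome 11 (20443430 to 20444017), at 99.80 to 99.92, and chromosome 3 (5860391 to 5860897), at 99.65 to 100. The chromosome 11 region had SMC3 at 15.3 in siDRR replicate 2, 70.3 in myotube replicate 2 and 47.2 and 67.5 in myoblasts.

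The long pool 1 list had a spacing of its own that the regions of both pools mostly lacked. Pairs of summits of pool 1 replicate 2 piled up at 1470 to 1480 bp, with 280 pairs in that window against a median of 16 per 10 bp at 2000 to 4000 bp. A partner summit 1401 to 1600 bp away was present for 16 of the 1124 regions of both pools in that list (1.42%), against 4830 of 66738 regions of pool 1 alone (7.24%). In the window from 1701 to 1900 bp the shares were 0.712% and 0.727%. The regions of both pools thus fell short of pool 1 alone at that spacing and not at the next. No test was made, because summit positions chose the regions.

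**Figure D5:**
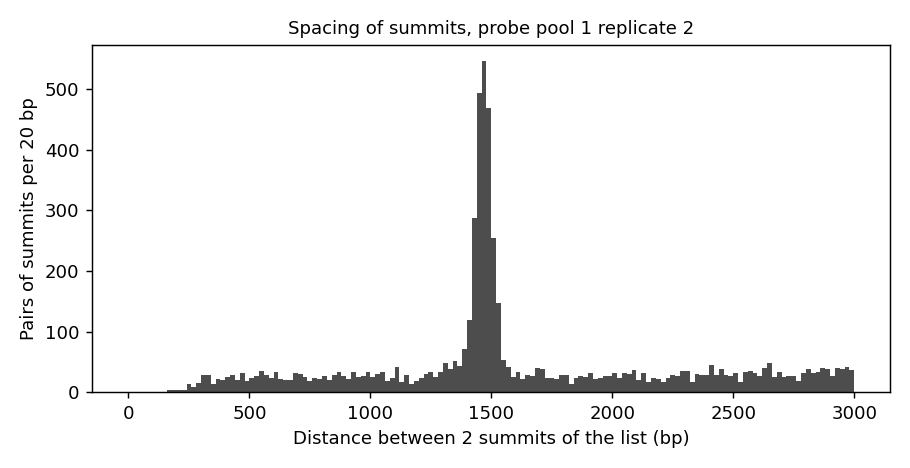
Number of pairs of summits of probe pool 1 replicate 2 by the distance between them (bp), in 20 bp bins up to 3000 bp. One narrow peak stands between about 1400 and 1600 bp on a low and even base.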

How the data were processed

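Mouse C2C12 peak lists of 16 libraries in 8 groups were used, 1 list per library, with coordinates of mm9. Per the submitters' processing notes, which give no roles or order, the tools were MACS 1.4.2, MACS2, Bowtie2 2.2.4, Bowtie 1.1.1, cutadapt 1.12, bcl2fastq 2.17.1 and CASAVA 1.8.2. The control for peak calling and any shift of ATAC reads were not given in the sources used here. Of 5 columns the final one is a score per peak that the authors deposited; its scale is not stated, so it served only to rank peaks inside a list, with ties sharing their mean rank. ChIRP lists hold single-base summits, and SMC3 and ATAC lists hold intervals.

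Starts were converted to 1-based positions. A library called a ChIRP region if a peak shared at least 1 bp with it, and a region took the percentile of its best peak. A region was lost when both libraries of the group compared against and neither of the other group called it, and gained in the opposite case. These are calls, not measured occupancy. Background shares applied the same rule to all ChIRP regions and to all merged peaks of the 4 libraries. Shares per library were compared by two-sided exact permutation over libraries. Exact binomial (Clopper-Pearson) intervals are at 95%, and a count of 0 allows up to 3; both cover counting error only. Depth per library is unknown. No pair of lists shared more than 1.41% of identical intervals.

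The regions, and the lists and rules used on them, were chosen with earlier results of these data known. Regions were named by rule: the 6 best-supported by ChIRP, the 10 and 6 best by myotube SMC3 and control ATAC, up to 5 lost and 5 gained per comparison, those with SMC3 and ATAC in both libraries, the widest and those with most summits, and 3 pairs on each side of the joining distance. Values are given for most of them. No genome or annotation of build mm9 was used, so genes, sequences and the planned muscle and cohesin gene lists were not analysed here. Alternatives were other widths, overlaps, score thresholds, list lengths, single lists left out, a replicate block and, chosen after seeing the data, regions of equal width. Scripts ran in Python 3.11.15 with NumPy 2.4.6, pandas 2.3.3, SciPy 1.17.1 and matplotlib 3.10.9 and were tested on simulated lists.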

Additional observations from a re-analysis of the deposited data

Results flagged for a closer look

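Regions outside chromosomes 1 to 19 and X were not part of the comparisons. Among 773 ChIRP regions on chromosome Y, the mitochondrial chromosome and unplaced contigs, 7 were found by both pools, and these were singled out because both pools gave signal in data the comparisons leave out. All 7 lay among the 365 regions on unplaced contigs other than those of Y, none was in all 4 lists, and the 406 regions of Y and its contigs held 0. No LacZ control stands beside them here.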

How the results depend on the processing

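The number of regions and the counts of calls depended strongly on the window and on single lists, and the cause of each shift was not tested beyond how the alternative is built. In the order SMC3 in both myotube libraries, ATAC in both control libraries, summits widened by 100 bp gave 710 regions with 10 and 38, by 500 bp 2133 regions with 62 and 132, the better-scoring 50% of each ChIRP list 271 regions with 9 and 19, and regions in all 4 lists 101 regions with 1 and 4. SMC3 in both myotube libraries was 14 with the better-scoring 50% of SMC3 and ATAC lists and 9 with lists of equal length. For myotubes against myoblasts, lost and gained were 18 and 2 at 500 bp, 3 and 0 with equal lengths and 0 and 0 in all 4 lists, and 0 were lost with the better 50% of ChIRP lists. For siDRR myotubes against myotubes, 4 were lost at 100 bp and with either better 50%, 0 with equal lengths and in all 4 lists, and 6 of 62 (9.68%) at 500 bp, where 1 was gained. For ATAC under siDRR, lost and gained were 2 and 1 at 100 bp, 13 and 10 at 500 bp, 0 and 1 with the better 50% of ChIRP lists and 0 and 0 in all 4 lists. For ATAC under siSmc3 they were 4 and 3 at 100 bp, 1 and 2 with the better 50% of ChIRP lists and 1 and 0 in all 4 lists; 12 were lost at 500 bp, and 5 gained with equal lengths and with regions of equal width.

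Directions turned as follows. The siDRR minus control difference in ATAC share was 0.164 points at 500 bp, 0.553 with the better 50% of ChIRP lists and 2.48 in all 4 lists. The siSmc3 minus control difference was -0.698 with equal lengths and 0.0 with the better 50% of SMC3 and ATAC lists. The log2 ratio to single-pool regions differed between myotubes and myoblasts by -0.15 at 100 bp, -0.14 with equal lengths and -0.058 with equal width. For ATAC under siDRR it differed by 0.005 at 500 bp, 0.056 with the better 50% of ChIRP lists and 0.59 in all 4 lists. For ATAC under siSmc3 it differed by -0.049 at 100 bp, -0.0080 at 500 bp, -0.068 with the better 50% of SMC3 and ATAC lists, -0.041 with equal lengths and -0.027 with equal width. For siDRR myotubes in all 4 lists no log2 ratio could be formed, because replicate 1 had 0 calls. The siDRR minus myotube differences in SMC3 share and log2 ratio were negative under every alternative that gave a value, but at 500 bp the log2 ratio difference was -0.018 (exact permutation p = 1.0), against -0.37 at 250 bp.

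Leaving out one library at a time gave 163 to 1120 regions, 3 to 53 with SMC3 in both myotube libraries and 18 to 118 with ATAC in both control libraries. For myotubes against myoblasts the share differed by -2.40 to -0.305 points and the log2 ratio by 0.04 to 0.16, with 0 to 21 lost and 0 to 8 gained. For siDRR myotubes against myotubes the ranges were -2.71 to -0.349 points and -0.51 to -0.03, with 1 to 23 lost and 0 to 8 gained. For ATAC under siDRR they were -2.01 to 1.31 points and -0.13 to 0.16, with 0 to 28 lost and 0 to 25 gained. For ATAC under siSmc3 they were -0.873 to 2.36 points and -0.10 to 0.13, with 1 to 26 lost and 0 to 37 gained. Across all alternatives, 184 values were labelled the same, 89 moved and 26 changed sign. A difference was labelled the same if it kept its sign, whatever its size, and a count if it stayed within 1.5 times. The label therefore does not show that a difference kept its size.

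Replicate numbers were shared, and whether they pair the libraries could not be settled. A library's calls correlated best with the same number in 8 of 12 SMC3 and 8 of 12 ATAC comparisons. Every replicate 2 library did so, and replicate 2 was the longer list in every SMC3 and ATAC group. Pairing and list length therefore cannot be told apart here. With the replicate block the SMC3 differences remained -1.35 and -1.53 points with exact p = 0.5, the smallest a block of 2 pairs allows, and the ATAC differences -0.349 (p = 1.0) and 0.742 (p = 0.5). List lengths limit every count, and depth is unknown.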
